A study of Rattus norvegicus with 8 samples.

Results

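Expression of 7 genes used as markers of striatal and thalamic neurons was followed in rat hypothalamus, array by array. The striatal markers were Pde10a, Ppp1r1b, Adora2a and Rgs9, and the thalamic markers were Lef1, Prkcd and Rora. The genes were taken by symbol from the annotation of the array, and the brightest probe set of a gene was to be kept. Of the 7 symbols 6 had a probe set, 1 each, so that no choice between probe sets arose. Rora was not analysed here. The 6 measured genes are 4 striatal and 2 thalamic markers among 14506 genes with a uniquely named probe set.

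The tissue was the hypothalamus of female Sprague-Dawley rats at day 21 of age, hybridised to 8 Affymetrix Rat Gene 1.0 arrays in 4 groups of 2. Con-s and Con-l were offspring of mothers fed normally through gestation and lactation, given saline or leptin. CR-s and CR-l were offspring of mothers whose calories were cut by 50% from gestation day 11 to 21 and again after birth, given saline or leptin. The injections of saline or leptin ran over postnatal days 2 to 8, and the sample names can also be read as saying that the mothers received it. The labels name no genetic change, and they do not state how many animals or litters stand behind an RNA sample, nor how the hypothalamus was cut out. The p-values therefore measure the spread between these samples, which may be technical.

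The hypothalamus lies below the thalamus, and its front and side border on the basal forebrain with the striatum. Medium spiny neurons of the striatum carry dopamine signals through cyclic AMP. Pde10a encodes a phosphodiesterase that breaks down cyclic nucleotides in these cells, Ppp1r1b encodes DARPP-32, the phosphatase inhibitor that integrates dopamine signals, Adora2a encodes the adenosine receptor of the indirect pathway, and Rgs9 encodes a regulator that shortens G protein signals. Lef1, a transcription factor of the Wnt pathway, and Prkcd, protein kinase C delta, are strongly expressed by neurons of thalamic nuclei in the rodent brain. Lef1 is also found in brain endothelium and lymphocytes, and Prkcd is also found outside the thalamus.

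Prkcd and Lef1 moved together over the arrays, and the sequences before their start sites are shown for that reason. The RefSeq promoter table for the GRCr8 assembly held an entry for 5 of the 7 symbols, and Ppp1r1b and Adora2a were the others. The 250 bases before the start site are printed in the direction of transcription. Capitals mark any match, on either strand, to the 3 motifs searched. These were the core recognised by TCF and LEF factors (CTTTGA), the response element core recognised by ROR factors (AGGTCA) and the cAMP response element (TGACGTCA).
Prkcd, chr16:5805840-5806089, minus strand: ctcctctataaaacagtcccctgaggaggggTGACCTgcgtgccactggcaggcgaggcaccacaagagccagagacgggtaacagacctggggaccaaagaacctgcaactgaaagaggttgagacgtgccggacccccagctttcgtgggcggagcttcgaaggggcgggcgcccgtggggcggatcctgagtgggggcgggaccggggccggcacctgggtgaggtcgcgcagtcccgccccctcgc
Lef1, chr2:222340463-222340712, plus strand: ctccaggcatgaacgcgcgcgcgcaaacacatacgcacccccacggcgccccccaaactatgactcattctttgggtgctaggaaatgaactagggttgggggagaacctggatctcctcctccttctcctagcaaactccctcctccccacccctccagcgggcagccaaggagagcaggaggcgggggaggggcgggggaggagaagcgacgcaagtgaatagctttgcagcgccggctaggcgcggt
The Prkcd window held 1 ROR response element core, which begins 219 bases before the start site on the strand opposite to that of the motif as written. The Lef1 window held none of the 3 motifs. Of 33469 promoter windows of the same length, 14.1% held the ROR response element core, 13.9% the TCF and LEF core and 1.59% the cAMP response element. These are matches of letters in this window only.

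The 8 arrays were alike as a whole. Median intensities lay between 111.8 and 114.1, and the arrays of a group correlated at 0.9947 to 0.9955 over probe sets, which are not independent replicates. The lowest correlation of an array with any other was hardly smaller, at 0.9938 to 0.9947. For CR-s replicate A it equalled that with its own replicate (0.9947), so replicates of a group did not clearly stand apart. The log2 values of CR-s replicate B were the least dispersed, with an interquartile range of 2.92 against 3.01 to 3.08 elsewhere. Some peptide genes of the labelled tissue were bright on every array, with log2 levels of 11.09 to 11.53 for Pmch (melanin-concentrating hormone), 9.21 to 9.75 for Hcrt (orexin) and 10.96 to 11.70 for Oxt (oxytocin). Other genes listed for hypothalamus were much dimmer, such as Pomc at 6.21 to 6.58 and Ghrh at 5.86 to 6.18.

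Prkcd differed more between arrays of the same group than between groups. Its log2 intensity was 8.34 on Con-s replicate A and 10.05 on Con-s replicate B. In the same order of replicates it was 9.30 and 9.87 in Con-l, 9.64 and 8.33 in CR-s, and 10.30 and 8.95 in CR-l. As intensities these values run from 322.4 to 1263.1, a 3.92-fold range. The arrays with high values were CR-l replicate A, Con-s replicate B, Con-l replicate B and CR-s replicate A, 1 from each group, and the ranges of all 4 groups overlapped. The replicates of Con-s differed by 1.72, or 3.29-fold, those of CR-l by 1.35, those of CR-s by 1.30 and those of Con-l by 0.56. The group means in falling order were 9.63 ± 0.95 (SD, n = 2) in CR-l, 9.58 ± 0.40 in Con-l, 9.20 ± 1.21 in Con-s and 8.98 ± 0.92 in CR-s, and the highest and lowest mean lay 0.64 apart.

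Lef1 followed Prkcd. It measured 7.79 and 8.69 on Con-s replicates A and B, 8.38 and 8.62 on those of Con-l, 8.24 and 7.84 on those of CR-s, and 8.85 and 8.02 on those of CR-l. The 3 arrays highest for Prkcd were also the 3 highest for Lef1, in the same order. Both Con-l arrays lay above both CR-s arrays, and every other pair of groups overlapped. The share of all genes separated between Con-l and CR-s is not given here. Between groups that differ in diet alone or treatment alone, separation in either direction was found in 32.7% to 46.4% of all genes. The group means were 8.50 ± 0.17 (SD, n = 2) in Con-l, 8.43 ± 0.59 in CR-l, 8.24 ± 0.64 in Con-s and 8.04 ± 0.29 in CR-s. Neighbours in the order of group means differed by less than the larger of their SDs for both genes.

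Of the striatal markers, Ppp1r1b and Adora2a shared a profile that was not that of the thalamic pair. Ppp1r1b measured 7.81 and 7.78 on Con-s replicates A and B, 8.56 and 7.80 on those of Con-l, 8.34 and 7.85 on those of CR-s, and 7.55 and 7.61 on those of CR-l. Adora2a measured 6.91 and 6.83 on Con-s replicates A and B, 7.44 and 6.83 on those of Con-l, 7.14 and 6.96 on those of CR-s, and 6.69 and 6.75 on those of CR-l. Its intensities on CR-l replicates A and B, 103.4 and 107.6, lay below the medians of these arrays, 111.8 and 112.4. Both genes were highest on Con-l replicate A, next on CR-s replicate A, and lowest on the CR-l arrays, both of which lay below the other 6 arrays, as they did in 5.65% of all genes. For Ppp1r1b the group means were 8.18 ± 0.54 (SD, n = 2) in Con-l, 8.09 ± 0.35 in CR-s, 7.79 ± 0.02 in Con-s and 7.58 ± 0.04 in CR-l. For Adora2a they were 7.14 ± 0.43 in Con-l, 7.05 ± 0.12 in CR-s, 6.87 ± 0.05 in Con-s and 6.72 ± 0.04 in CR-l. The replicates agreed closely in Con-s and CR-l, and differed by 0.76 (Ppp1r1b) and 0.61 (Adora2a) in Con-l and by 0.50 and 0.18 in CR-s.

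Pde10a and Rgs9 varied less. Pde10a measured 8.02 and 8.13 on Con-s replicates A and B, 8.29 and 8.07 on those of Con-l, 8.40 and 8.14 on those of CR-s, and 8.35 and 8.22 on those of CR-l, a range of 0.39. Its group means lay between 8.07 ± 0.08 (SD, n = 2) in Con-s and 8.29 ± 0.10 in CR-l. Rgs9 measured 7.53 and 7.42 on Con-s replicates A and B, 7.68 and 7.34 on those of Con-l, 7.63 and 7.48 on those of CR-s, and 7.55 and 7.50 on those of CR-l, a range of 0.34. Its group means lay between 7.47 ± 0.08 in Con-s and 7.56 ± 0.11 in CR-s. Rgs9 was highest on the same 2 arrays as Ppp1r1b and Adora2a, and Pde10a was highest on CR-s replicate A.

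**Figure D1:**
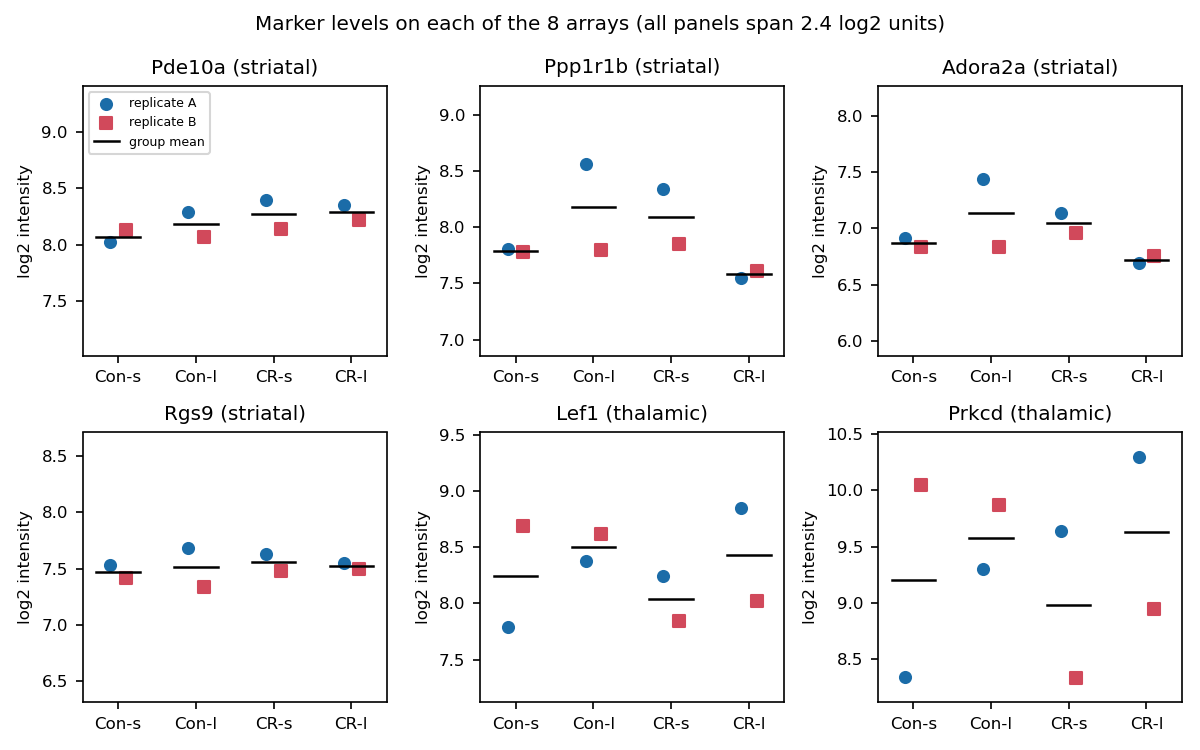
Log2 intensity (vertical axis) of the 6 measured markers in the 4 groups (horizontal axis); circles are replicate A, squares replicate B and black lines the group means, and every panel spans the same number of log2 units. The replicates of Prkcd lie far apart in Con-s (1.72), CR-l (1.35) and CR-s (1.30), those of Lef1 in Con-s (0.90) and CR-l (0.84), those of Ppp1r1b in Con-l (0.76) and CR-s (0.50) and those of Adora2a in Con-l (0.61), and no replicates of Rgs9 or Pde10a differ by more than 0.34.

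The spread within groups was set against that of all genes, as a pooled SD from the 4 differences between replicates A and B. The median gene had a pooled SD of 0.08 on the log2 scale, and 0.18 marked the upper 10.0% of genes. Prkcd had 0.92, and 1 gene of 14506 had a larger value. That gene, named after its value was seen, was Cga, the shared alpha subunit of pituitary glycoprotein hormones (pooled SD 1.07), which measured 9.19 on Con-l replicate A and 5.83 to 6.19 on the other arrays. Lef1 had 0.46, with 28 genes above it, Ppp1r1b 0.32, with 124 above it, and Adora2a 0.23, with 552 above it. Pde10a and Rgs9, at 0.14 each, lay outside it, with 79.6% and 80.1% of genes less variable. In all 6 genes the largest difference between replicates exceeded the range of the 4 group means, which held for 61.8% of all genes, so the count by itself sets them little apart. In bulk tissue, fewer cells of a type and less RNA per cell cannot be told apart.

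**Figure D2:**
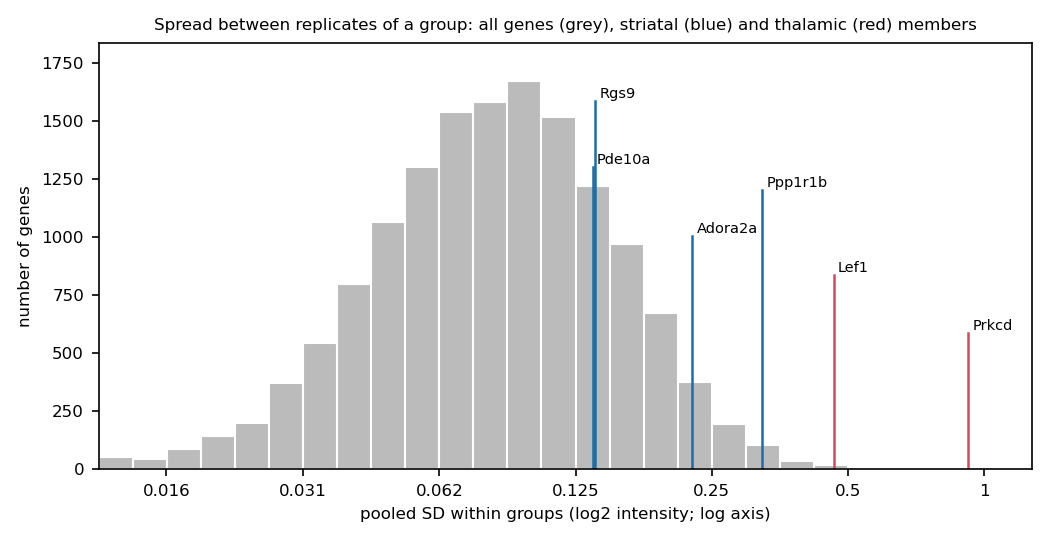
Number of genes (vertical axis) by pooled SD within groups (horizontal axis, log2 intensity units on a log scale); blue lines mark the striatal and red lines the thalamic genes, and the heights of the lines have no meaning. Prkcd (0.92) and Lef1 (0.46) lie at the far right, Rgs9 and Pde10a (0.14) within the bulk of genes.

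Other genes listed as thalamic or habenular shared the direction of the replicate differences of Prkcd, which is less than a shared profile. Of 20 such genes 14 were measured, and 9 of the 14 differed between replicates A and B in the same direction as Prkcd in all 4 groups, where 5.57% of all genes did. This list and those below were chosen with earlier results of these data known, so such counts are descriptions and no independent check. The 9 genes are named next. They were Cacna1g, a T-type calcium channel, Slc17a6, a vesicular glutamate transporter also present in hypothalamus, Ntng1, Rgs16, Lhx9, Kcnc2, Zic1, Grm4 and Adarb1. Ntng1 (netrin-G1, an adhesion molecule of thalamic axons) ran from 9.23 on CR-s replicate B to 9.96 on CR-l replicate A. Adarb1, an RNA-editing enzyme, ran from 10.10 to 10.80 on the same arrays. The replicate differences of the 9 genes were smaller than those of Prkcd, at most 0.57 for Ntng1, 0.61 for Rgs16 and 0.49 for Adarb1, all in Con-s. Some of the signs rest on very small differences, such as -0.01 in Con-l and 0.02 in CR-s for Lhx9. Calb2, Tnnt1, Lhx2, Gpr151 and Pou4f1 did not share the signs, the last of these a habenular factor.

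Among 9 measured genes listed for cortex, hippocampus and amygdala, 5 had the same signs: Slc17a7, Prox1, Nrn1, Cck and Etv1. Slc17a7, the vesicular glutamate transporter of cortical neurons and of some thalamic neurons, ran from 7.39 on Con-s replicate A to 9.25 on CR-l replicate A, with 4 genes more variable within groups. Cck, the gene of cholecystokinin, ran from 8.64 on CR-s replicate B to 9.84 on Con-s replicate B. A thalamic origin and a cortical or hippocampal origin of the shared signs were not tested against each other. The sign pattern was found in 0 of 21 hypothalamic neuron genes, 0 of 15 further striatal genes and 1 of 10 general neuron genes (Syt1). It was found in 0 of 9 genes for vessels, Wnt targets and T cells, the other sources of Lef1. As 5.57% of all genes had the pattern, a count of 0 in lists of this size says little. The mean deviation of these 9 genes per array lay between -0.05 and 0.02, a mean over genes that differed in direction with diet (Nkd1 -0.33, Lck 0.22). The T cell genes Cd3e (4.85 to 5.10) and Cd8a (5.49 to 5.87) had low levels. The part of these other sources in the Lef1 values was not tested.

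For Ppp1r1b and Adora2a the signs were shared by 3 of 15 further striatal genes, Drd2, Penk and Meis2, where 9.16% of all genes shared them. Penk, the gene of enkephalin in indirect pathway neurons, measured 10.24 and 9.74 on the A and B arrays of Con-l. Gng7, a striatal G protein subunit named after its values were seen, measured 9.75 and 9.00 on the same arrays and 9.43 and 9.06 on CR-s replicates A and B. Drd1, the dopamine D1 receptor gene, measured 6.60 and 6.27 in Con-l and 6.66 and 6.20 in CR-s. It was dim on every array, its highest value of 6.66 lying under the lowest of Adora2a, 6.69. Gng7 and Drd1 did not share the signs of Ppp1r1b. Unlike Ppp1r1b and Adora2a, Penk, Gng7 and Drd1 were not lowest in CR-l, but they are only a few of the 15 genes. Drd2 and Actn2 were lowest on CR-l replicate A (8.27 and 6.67), with 8.59 and 6.81 on replicate B of that group. On CR-l replicates A and B Penk measured 9.98 and 10.09, Gng7 8.99 and 9.15, and Drd1 6.43 and 6.37. The mean deviation of the 15 further striatal genes was 0.02 and 0.03 on these arrays, against -0.11 and -0.12 for the 4 striatal markers. The signs of Ppp1r1b were also found in 2 of 8 genes of choroid plexus and meninges (Ogn and Dcn) and in 1 of 21 hypothalamic genes (Fezf1). The choroid plexus and meningeal list lay 0.45 above its 8-array mean on Con-l replicate A, its highest value, with 0.13 on replicate B of that group, 0.26 and 0.06 on Con-s replicates A and B and -0.30 to -0.17 on the CR arrays. In that list Kcnj13, Slc6a13, Ogn, Dcn and Aldh1a2 were highest on Con-l replicate A. The choroid plexus genes Ttr, Kl and Folr1 were highest on other arrays, with 6.36, 6.50 and 6.39 on that one. The part of meningeal or choroid plexus tissue, or of pituitary tissue as marked by Cga, in the striatal values of Con-l replicate A was not tested.

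**Figure D3:**
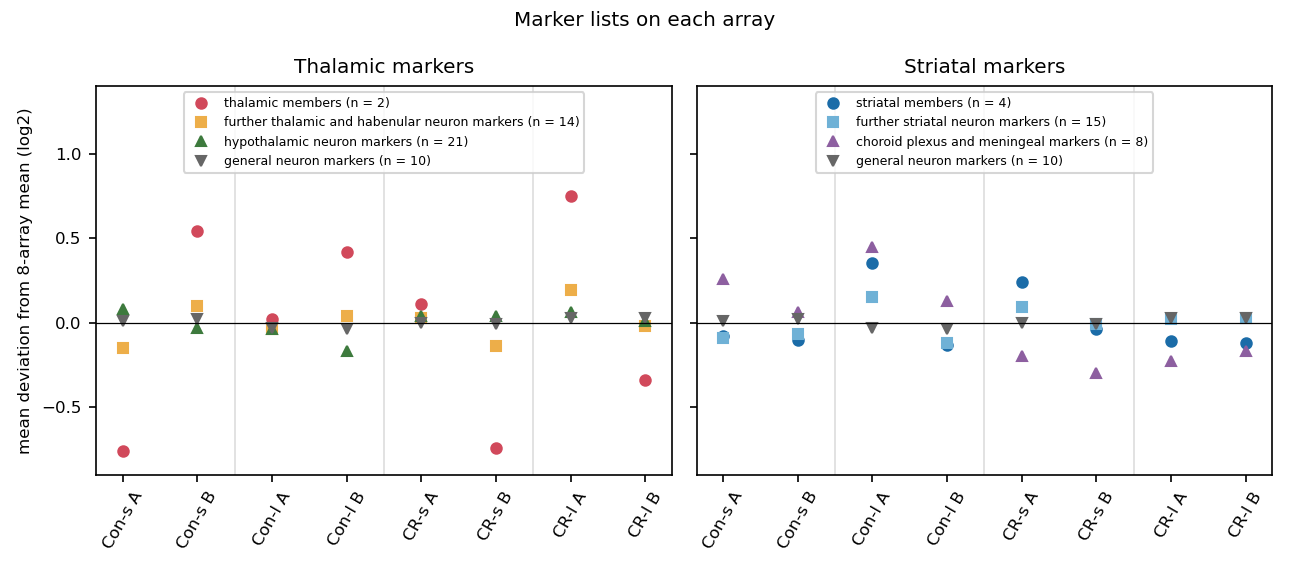
Mean deviation of each gene list from its own 8-array mean (vertical axis, log2) on each array (horizontal axis, grey lines separate the groups). The 2 thalamic genes run from -0.76 to 0.75 and the 14 further thalamic genes from -0.15 to 0.19 over the same arrays, the 4 striatal genes peak at 0.35 on Con-l replicate A, and the 10 general neuron genes stay between -0.04 and 0.03.

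The genes most like each marker were found by the root mean square difference between standardised profiles over the 8 arrays, among 14505 other genes; any gene's median distance from a marker was 1.38 to 1.43. Nearest to Prkcd were Pcp4 (0.12), Nsmf (0.15) and Gabrd (0.15), and Lef1 stood at rank 13 (0.25). Gabrd, the delta subunit of GABA-A receptors, ran from 6.54 on Con-s replicate A to 7.68 on CR-l replicate A. Nearest to Lef1 were Slc24a2 (0.14), Ncdn (0.20) and Nsmf (0.21), and Prkcd stood at rank 9. Adora2a was the gene nearest to Ppp1r1b, and Ppp1r1b the gene nearest to Adora2a (0.22), followed by Lage3 (0.29) and Qrsl1 (0.31) for the first and Kcnv1 (0.25) and Ctsl (0.31) for the second. Pde10a was nearest to Serpina5 (0.27), Polb (0.28) and Gfm2 (0.29), and Rgs9 to Dtx3l (0.31), Csn1s2b (0.31) and Cenpj (0.36). The nearest striatal marker to Pde10a was Rgs9, at rank 496 (0.78), and to Rgs9 it was Pde10a, at rank 471. The 4 striatal markers did not share a single profile, whereas the measured thalamic markers did.

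Averaged over saline and leptin, restricted and control offspring were compared with 4 arrays against 4, which asks whether maternal restriction goes with the level of these border markers. None of the 6 passed a Benjamini-Hochberg adjusted p under 0.05 in limma, where 1.21% of all genes did (0.324% higher and 0.882% lower), and 0 had an unadjusted p under 0.05, where 15.8% of genes did. Prkcd differed by -0.08 (SE 0.49, 95% confidence interval -1.23 to 1.06, limma adjusted p = 0.958) and Lef1 by -0.13 (SE 0.25, interval -0.71 to 0.45, limma adjusted p = 0.848). Ppp1r1b differed by -0.15 (SE 0.17, interval -0.56 to 0.26) and Adora2a by -0.12 (SE 0.12, interval -0.41 to 0.17). Pde10a differed by 0.15 (SE 0.08, interval -0.04 to 0.34, limma adjusted p = 0.418), the lowest p of the 6, and Rgs9 by 0.05 (SE 0.08, interval -0.14 to 0.24). The CR and Con arrays overlapped for each gene, where 11.2% of all genes did not overlap. The intervals leave room for more than a 2-fold difference in either direction for Prkcd and for differences of -0.04 to 0.34 for Pde10a. Leaving out 1 array moved the Prkcd difference from -0.51 (without Con-s replicate A) to 0.35 (without Con-s replicate B).

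Leptin and saline, averaged over both diets, were compared in the same way. The differences were 0.52 for Prkcd (SE 0.49, interval -0.63 to 1.66, limma adjusted p = 0.923), 0.33 for Lef1 (SE 0.25, interval -0.25 to 0.91, limma adjusted p = 0.915), 0.06 for Pde10a, 0.00 for Rgs9, -0.03 for Adora2a and -0.06 for Ppp1r1b. In limma 0 of the 6 passed, as did 0.0% of all genes, and 0 of the 6 had an unadjusted p under 0.05, where 4.87% of genes did. Both sides overlapped for each gene, where 2.37% of all genes did not.

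Under saline alone (CR-s against Con-s, 2 arrays each), Pde10a, Ppp1r1b and Adora2a were higher on both CR-s arrays than on either Con-s array. Such separation in either direction was found in 38.0% of all genes. The differences were 0.20 (SE 0.11, limma adjusted p = 0.681), 0.30 (SE 0.25, limma adjusted p = 0.785) and 0.18 (SE 0.18, limma adjusted p = 0.836), with Rgs9 at 0.08, Lef1 at -0.20 and Prkcd at -0.21. With limma 0 of the 6 passed, as did 0.0% of all genes, and 0 of the 6 had an unadjusted p under 0.05, where 8.50% of genes did. Without CR-s replicate A the Ppp1r1b difference was 0.05 and that of Adora2a 0.09.

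Under leptin (CR-l against Con-l, 2 arrays each), Ppp1r1b and Adora2a were lower on both CR-l arrays than on either Con-l array, a separation found in either direction in 46.4% of all genes. Ppp1r1b differed by -0.60 (SE 0.25, interval -1.18 to -0.02, limma adjusted p = 0.337) and Adora2a by -0.42 (SE 0.18, limma adjusted p = 0.352). None of the 6 passed, where 0.0207% of all genes did, and these 2 had an unadjusted p under 0.05, where 14.2% of genes did. Without Con-l replicate A, the array highest for both, the differences were -0.22 and -0.11. Pde10a differed by 0.11, Rgs9 by 0.02, Prkcd by 0.05 and Lef1 by -0.06.

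Leptin-treated restricted offspring (CR-l) set against saline-treated ones (CR-s, 2 arrays each) form a comparison that shares arrays with both just given. Ppp1r1b differed by -0.51 (SE 0.25, interval -1.09 to 0.06, limma adjusted p = 0.808) and Adora2a by -0.33 (SE 0.18, interval -0.74 to 0.09, limma adjusted p = 0.808), both CR-l arrays lying below both CR-s arrays, as either side did for 36.7% of all genes. Without CR-s replicate A the Ppp1r1b difference was -0.27. Prkcd differed by 0.64 (SE 0.69, interval -0.97 to 2.26) and Lef1 by 0.39 (SE 0.35, interval -0.43 to 1.22), with overlapping arrays. Both became -0.03 without CR-l replicate A, and Prkcd -0.01 without CR-s replicate B. In limma 0 of the 6 passed, as did 0.0% of all genes, and 0 had an unadjusted p under 0.05, where 5.85% of genes did.

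Leptin-treated controls (Con-l) set against saline-treated ones (Con-s, 2 arrays each) gave differences of 0.04 (Rgs9) to 0.39 (Prkcd, SE 0.69, and Ppp1r1b, SE 0.25), all at a limma adjusted p of 0.998. The arrays overlapped for each of the 6, where 32.7% of all genes did not overlap. In limma 0 of the 6 passed, as did 0.0% of all genes, and 0 had an unadjusted p under 0.05, where 4.19% of genes did. Without Con-l replicate A the Ppp1r1b difference was 0.01.

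The difference between the leptin effects in restricted and control offspring was -0.90 for Ppp1r1b (SE 0.35, interval -1.72 to -0.08) and -0.59 for Adora2a (SE 0.25), with a limma adjusted p of 0.898 each. These 2 of the 6 had an unadjusted p under 0.05, where 5.15% of all genes did, and none passed, as did 0.0% of all genes. For both genes the CR arrays lay above the Con arrays under saline and below them under leptin, and 4.34% of all genes showed such an opposition in one order or the other. The other 4 lay between -0.09 (Pde10a) and 0.26 (Prkcd, SE 0.97). Without Con-l replicate A the value was -0.52 for Ppp1r1b and -0.29 for Adora2a.

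**Figure D4:**
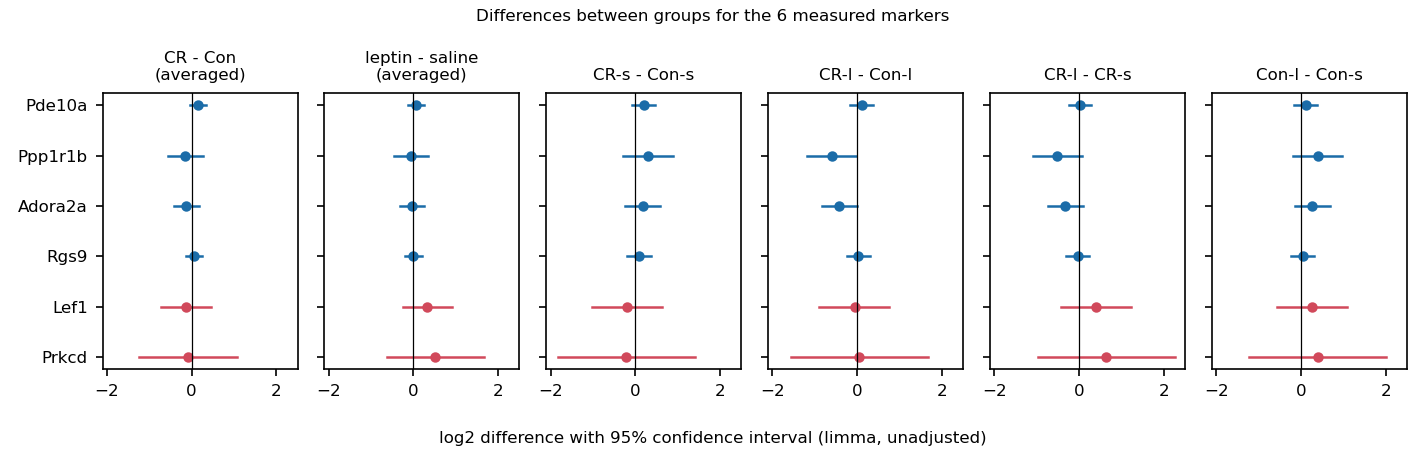
Log2 difference (horizontal axis) of the 6 genes (vertical axis) in 6 comparisons, with points for the estimate and bars for its 95% confidence interval from limma, not adjusted for the number of genes. The bars of Prkcd are the widest in each panel, and those of Ppp1r1b and Adora2a lie below 0 for CR-l minus Con-l.

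The further marker lists did not add calls. Of 15 further striatal genes 11 were higher and 4 lower in restricted offspring (median 0.07, where the median of all genes was 0.00), and 0 passed. Arpp21, a cyclic AMP-regulated phosphoprotein of medium spiny neurons, had an unadjusted p under 0.05 in this comparison (0.22, SE 0.09, limma adjusted p = 0.298) and Meis2 had one under saline (0.36, SE 0.14, limma adjusted p = 0.545). Of 14 further thalamic and habenular genes 7 were higher and 7 lower with restriction (median 0.01), and 12 were higher and 2 lower with leptin averaged over both diets (median 0.10), with 0 passing in either. Calb2, the gene of calretinin, which is also expressed in hypothalamic neurons, had an unadjusted p under 0.05 with restriction (0.16, SE 0.05, limma adjusted p = 0.153). In leptin-treated against saline-treated restricted offspring 11 of the 14 thalamic genes were higher (median 0.15, where the median of all genes was 0.01), with 0 passing and 0 at an unadjusted p under 0.05. The arrays overlapped in both leptin comparisons: the mean deviation of the thalamic list was 0.19 on replicate A and -0.02 on replicate B of CR-l, and in the same order 0.03 and -0.14 in CR-s, -0.04 and 0.04 in Con-l, and -0.15 and 0.10 in Con-s. By comparison, Agrp and Npy, the hypothalamic genes of appetite-raising peptides, rose with restriction by 0.70 (SE 0.09, limma adjusted p = 0.0233) and 0.75 (SE 0.10, limma adjusted p = 0.0229), and neither had the sign pattern of Prkcd or of Ppp1r1b. With each of the 8 arrays left out in turn, Agrp still passed in 2 cases (0.60 to 0.79, limma adjusted p = 0.0457 to 0.102) and Npy in 0 (0.67 to 0.84, limma adjusted p = 0.0502 to 0.0987), and neither passed with all probe sets tested.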

How the data were processed

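Total RNA of 8 hypothalamus samples was measured on Affymetrix Rat Gene 1.0 arrays. Per the submitters' processing notes, the authors ran RMA (background correction, normalization, summary per probe set) in Affymetrix Expression Console, whose version the sources used here do not give. The file holds deposited linear-scale intensities for 29215 probe sets, from 2.39 to 19807.17, which were log2-transformed here and not normalized again. RMA pulls the arrays to a common distribution, so levels are relative within an array. The array annotation listed 15633 of the probe sets, 15310 with 1 gene symbol and 323 with several; symbols were updated through the Entrez number (15279) or an accession (6), and 25 kept the annotation's symbol. The brightest probe set was kept for 527 genes with several. Positions of probe sets are not used here.

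All comparisons came from 1 limma model (limma 3.58.1, R 4.3.3, lmFit and eBayes) of 4 group means over the 8 arrays, with 4 residual and 3.21 prior degrees of freedom. Tests were two-sided, with Benjamini-Hochberg adjustment over 14506 genes and a threshold of 0.05. The number of arrays limits the precision. The fit was checked on simulated data. Alternatives were cyclic loess, median centring, a filter on dim genes, trend and robust eBayes, a replicate block, all probe sets or their mean per gene, the compared groups alone, and each array left out. Named genes were the markers, the 3 nearest profiles of each, and up to 3 genes a list and comparison with an unadjusted p under 0.05, and every list gene that passed. The members and the 8 marker lists (113 entries, 95 measured) were chosen with earlier results of these data known, and the sequences came from RefSeq (GRCr8).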

Additional observations from a re-analysis of the deposited data

Results flagged for a closer look

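Single arrays stood far from the other 3 in 3 of 24 sets of 4 arrays examined. The sets were the Con, CR, saline and leptin arrays for each of the 6 genes. Chance gives about 1 in 20 for a single set. The sets share arrays, and all 3 flags came from Ppp1r1b and Adora2a, each the nearest profile of the other. Their number can therefore not be judged against that rate. Ppp1r1b measured 8.56 on Con-l replicate A, where the next highest Con array had 7.81, and 8.34 on CR-s replicate A, where the next highest saline array had 7.85. Adora2a measured 7.44 on Con-l replicate A, where the next highest Con array had 6.91.

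For the same genes the CR arrays all lay above the Con arrays under saline and all below them under leptin, an opposition found in 4.34% of all genes in one order or the other. The test of that difference gave -0.90 for Ppp1r1b (SE 0.35, limma, adjusted p = 0.898) and -0.59 for Adora2a (SE 0.25, limma, adjusted p = 0.898), and neither passed the adjustment.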

How the results depend on the processing

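None of the 6 genes passed the threshold in any comparison under any of the alternatives, over which the lowest adjusted p was 0.151 (limma, Adora2a under leptin without Con-l replicate B). The pooled SD within groups kept its size with cyclic loess (0.92 for Prkcd and 0.47 for Lef1). Of 666 recomputed differences, 52 changed sign when 1 array was left out and 4 under other settings: Rgs9 with leptin averaged was -0.01 with cyclic loess and -0.01 with median centring, and Pde10a with leptin in restricted offspring was -0.02 and -0.00. Ranges over the arrays left out, where the sign changed, were as follows. For diet averaged the ranges were Ppp1r1b -0.34 to 0.04, Adora2a -0.27 to 0.03, Rgs9 -0.03 to 0.14, Lef1 -0.36 to 0.09, Prkcd -0.51 to 0.35. For leptin averaged the ranges were Pde10a -0.00 to 0.13, Ppp1r1b -0.25 to 0.13, Adora2a -0.18 to 0.12, Rgs9 -0.08 to 0.09. For diet under saline the ranges were Lef1 -0.65 to 0.25, Prkcd -1.07 to 0.65. For diet under leptin the ranges were Pde10a -0.00 to 0.22, Rgs9 -0.15 to 0.19, Lef1 -0.48 to 0.35, Prkcd -0.63 to 0.72. For leptin in restricted offspring the ranges were Pde10a -0.12 to 0.15, Rgs9 -0.11 to 0.04, Lef1 -0.03 to 0.81, Prkcd -0.03 to 1.32. For leptin in controls the ranges were Pde10a -0.00 to 0.22, Adora2a -0.04 to 0.57, Rgs9 -0.13 to 0.20, Lef1 -0.19 to 0.71, Prkcd -0.47 to 1.25. For the interaction the ranges were Pde10a -0.22 to 0.04, Rgs9 -0.24 to 0.10, Lef1 -0.32 to 0.58, Prkcd -0.60 to 1.11.

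Counts over all genes moved more. With diet averaged 175 genes passed, against 609 among the brightest 60 percent, 744 with trend and robust settings, 267 with the compared factor alone, 87 with the replicate block, 0 with all probe sets and 0 to 27 with 1 array left out. For diet under saline 0 became 16 in the upper 60 percent and 66 with trend and robust settings. For diet under leptin 3 became 24 with cyclic loess, 249 in the upper 60 percent, 469 with trend and robust settings, 0 with the replicate block, 0 with all probe sets, 0 with the compared groups alone and 0 to 3 with 1 array left out. For leptin averaged, leptin in restricted offspring, leptin in controls and the interaction, leaving out 1 array gave 0 to 1. The replicate letters were not taken as pairing the arrays, since the differences between replicates A and B correlated at -0.06 to 0.11 between groups over genes. With the replicate block, 4 of the 7 genes of other cell types that fell with diet no longer passed in limma: Oxt (adjusted p = 0.0895), Ugt8 (0.0773), Cnp (0.0752) and Slc6a13 (0.0627). The causes of these changes were not tested.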

Other observations

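Genes of other cell types passed the diet comparison, in which none of the striatal and thalamic genes did. With diet averaged over saline and leptin, all 9 measured myelin and oligodendrocyte genes were lower in restricted offspring (median -0.25), and 3 passed in limma: Ermn, a cytoskeletal protein of myelinating cells, fell by 0.54 (SE 0.06, limma adjusted p = 0.0223), Ugt8, which makes galactosylceramide, by 0.28 and Cnp, a myelin enzyme, by 0.27. Ermn measured 10.87 to 11.06 on the Con arrays and 10.25 to 10.48 on the CR arrays, with no overlap. Of 8 choroid plexus and meningeal genes 5 were lower (median -0.37), and 3 passed. Ogn, a small matrix proteoglycan of meninges, fell by 1.21 (SE 0.13, limma adjusted p = 0.0223). Kcnj13, a potassium channel of choroid plexus, fell by 1.17 (SE 0.14) and Slc6a13, a GABA transporter of meninges, by 0.60 (SE 0.09). The choroid plexus genes Ttr, Kl and Folr1 were not lower, so the falls do not extend to all choroid plexus genes of the list. These genes were dim, with at most 6.92, 6.71 and 6.46 on any array, which limits what their lack of a fall can show. Kcnj13, which fell, was dim as well (5.31 to 7.24). Ttr measured 6.18 to 6.92 on the Con arrays and 6.22 to 6.74 on the CR arrays. Oxt fell by 0.38 (SE 0.07, limma adjusted p = 0.0496) in the hypothalamic list, where 3 of 21 genes passed. With each of the 8 arrays left out in turn, these falls kept their direction, but Ogn passed in only 2 cases (limma adjusted p = 0.0226 to 0.0925), Ermn (0.0478 to 0.0951), Kcnj13 and Slc6a13 in 1 each, and Ugt8, Cnp and Oxt in 0; with all probe sets none of the 7 passed. Median centring also ended the calls of Ugt8 (limma adjusted p = 0.0692), Cnp (0.0629) and Oxt (0.0648), and Oxt missed the threshold with cyclic loess (0.0534) and with the compared groups alone (0.069).

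None of the 10 general neuron genes passed (median 0.05), nor any of the 9 cortical genes (median 0.06) or of the 9 genes for vessels, Wnt targets and T cells (median 0.01), where Nkd1, a Wnt inhibitor, came nearest at -0.33 (SE 0.06, limma adjusted p = 0.0527). Median pooled SDs within groups were 0.18 for the thalamic list, 0.15 for the cortical list, 0.14 for the striatal list, 0.19 for choroid plexus and meninges, 0.10 for hypothalamic, 0.07 for vessels, Wnt targets and T cells, 0.06 for myelin and 0.04 for general neuron genes.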
